A study of Columba livia with 19 samples.

Results

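The 113 most abundant transcripts that the growing feather collar of pigeons (Columba livia) kept at a high level in both colour forms are described here. A gene entered the group when its mean level was at least 1000 CPM (its count per 1000000 gene counts of the bird) over the 10 wild-type libraries (1 carrier among them) and also over the 9 recessive red libraries. A gene whose ratio of recessive red to wild type reached 0.75 on the log2 scale, in either direction, in both batches would have been left out, and 0 genes were. The rule gave 113 of the 15392 genes in the count table, of which 207 had no count in any bird. These levels and ratios chose the group, so they are given as a description.

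The feather collar is a ring of dividing epidermis at the base of a regrowing feather. Its keratinocytes multiply, move outward and harden into barbs and barbules as they fill with keratins and with the small corneous beta proteins often called feather keratins, while melanocytes, a minority of the cells, hand pigment to them. Growing cells of this kind also hold much RNA for ribosomal proteins, translation factors and mitochondrial proteins. Recessive red birds make red pheomelanin in place of dark eumelanin and carry deletions upstream of SOX10, which encodes a transcription factor that melanocytes and other neural crest cells depend on.

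Secondary flight feathers were plucked and grew back over 9 to 10 days. Their lowest 4 to 5 mm was taken, the dermal pulp was removed, and polyadenylated RNA was sequenced. The groups were 3 recessive red e2 homozygotes of batch 2, 3 recessive red e1 homozygotes of batch 2, 3 recessive red e1 homozygotes of batch 1, 1 heterozygous wild-type/e1 bird of batch 2 (the carrier, wild type in colour), 5 wild-type birds of batch 2 and 4 wild-type birds of batch 1. Batch 2 was collected in 2020 and batch 1 was sequenced in 2017, and they are called the 2020 and the 2017 batch below. Each library is 1 bird, and the labels give neither sex nor age. No bird is in both batches, so collection, bird and sequencing run cannot be told apart between them. Total counts were 13559606 to 23168538 per bird, and 14107 to 14385 genes had at least 1 count. The lowest count of a member in any bird was 6722, where the counting error (SD) is 1.22%, so counting error is small beside the differences between birds described below.

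The identifiers of the count table, headed Cliv2.1, are not paired with gene names in the files used here, and 0 of the 15392 matched the 22830 pigeon genes of the RefSeq table of assembly bColLiv1.pat.W.v2. The members are therefore given by identifier, and no role, position or sequence is assigned to any of them. Lists of feather keratins, epidermal keratins, ribosomal, mitochondrial, pulp, blood and melanocyte genes could not be looked up for the same reason, so the labelled tissue was not checked against its markers. Transcripts that share reads with a near-identical copy, as keratin and ribosomal protein genes often do, could not be picked out, and the count of any single member is uncertain to that extent.

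The group stands at the top of the libraries. Of the 113 members, 44 had a mean of at least 2000 CPM over the 19 birds. The means had a median of 1732 CPM and a range of 1041 to 21141 CPM. Counts were not divided by transcript length, so this order is one of library share and not of molecules. A total of 89 to 106 members were among the 113 genes with the highest counts of each single bird, and 4 to 30 members fell under 1000 CPM in a single bird.

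One transcript stood apart. A306_00000962 averaged 21141 CPM, which is 3.20 times the mean of the second member, and it had the highest count of all genes in each of the 19 birds. It held 1.18 to 2.95% of all counts of a bird and, as a mean over birds, 8.13% of the counts of the 113 members. It measured 18653, 29464 and 12739 CPM in the e2 birds 14, 5 and 7 and 15112, 11813 and 29360 CPM in the e1 birds 11, 12 and 6 of 2020. It measured 22805, 28659 and 21982 CPM in the e1 birds of 2017 and 17148 CPM in the carrier. Wild type stood at 13802 to 17639 CPM in 2020, with a median of 17116 CPM, and at 28861, 29356, 27398 and 28707 CPM in 2017. The wild-type birds of the 2 batches did not overlap, and the recessive red birds of 2020 spanned the whole range, with bird 5 (e2) and bird 6 (e1) at the level of the 2017 birds.

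The second and the tenth member, A306_00012798 and A306_00012799, have consecutive identifiers, as do A306_00012905 and A306_00012906 further down. Consecutive numbers need not mean neighbouring genes, since no positions were used. A306_00012798 measured 6313, 4421 and 8708 CPM in the e2 birds and 8098, 8100 and 5864 CPM in the e1 birds of 2020, 7252, 3991 and 5096 CPM in the e1 birds of 2017, and 7085 CPM in the carrier. It stood at 6649 to 10435 CPM in wild type of 2020, with a median of 7928 CPM, and at 4284, 4201, 5880 and 4911 CPM in wild type of 2017. Here the wild-type birds of 2020 were all above those of 2017, the reverse of A306_00000962, and birds 5 and 6 were the lowest recessive red birds of 2020. A306_00012799 averaged 3978 CPM and was less even, with 1578 to 6965 CPM over the birds. The pair had a Pearson r of 0.73 between their log2 CPM values over the 19 birds, and A306_00012905 and A306_00012906 one of 0.84. These values describe birds that share library, depth and batch.

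The other members of the leading 10 were A306_00000792 at a mean of 5621 CPM, A306_00002262 at 4692 CPM, A306_00003663 at 4392 CPM, A306_00009109 at 4365 CPM, A306_00008628 at 4249 CPM, A306_00013073 at 4211 CPM and A306_00014008 at 4179 CPM. Together the 10 held 5.13 to 7.64% of the counts of a bird. The order below the first was not separated by the spread between birds. The second member, A306_00012798, ran from 3991 to 10435 CPM and A306_00000792, the third, from 3819 to 7788 CPM. A306_00012799 ran from 1578 to 6965 CPM.

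**Figure D1:**
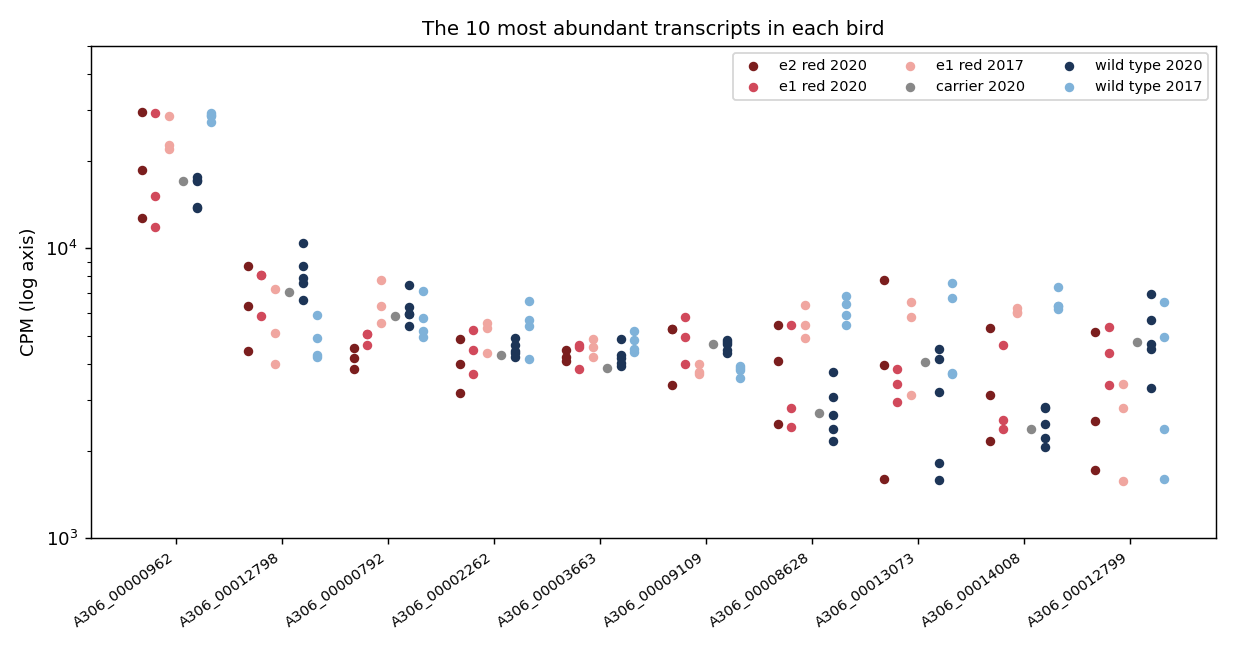
CPM (log axis) of the 10 most abundant members in each of the 19 birds, with 1 point per bird and the groups ordered as e2 2020, e1 2020, e1 2017, carrier, wild type 2020 and wild type 2017. A306_00000962 lies above the others in every bird and lower in wild type of 2020 (13802 to 17639 CPM) than in wild type of 2017 (27398 to 29356 CPM), while A306_00012798 lies higher in wild type of 2020.

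Within groups the members differed in how steady they were. The coefficient of variation of CPM within groups (the median over the 5 groups with replicates) had a median of 14.1% over the members. Over all 13420 genes tested it was 17.2%. These include 2981 genes with a mean of 1 to 10 CPM, where counting error is larger. No value for genes at the members' level is given, so the 2 medians are not read against each other. The steadiest member was A306_00011256 at 3.11%, which measured 1223, 1299 and 1281 CPM in the e2 birds and 1326, 1315 and 1293 CPM in the e1 birds of 2020. It stood at 1153, 1186 and 1196 CPM in the e1 birds of 2017, and at 1171 to 1296 CPM in wild type of 2020 and 978 to 1309 CPM in wild type of 2017. A306_00009109, the sixth member, came next at 4.08%, but this median does not show its spread in the recessive red birds of 2020. Its mean and SD were 4637 ± 1101 CPM in the e2 birds and 4904 ± 890 CPM in the e1 birds of 2020. The SD was 154 CPM in the e1 birds of 2017, 188 CPM in wild type of 2020 and 148 CPM in wild type of 2017.

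The most variable member was A306_00012905 at 45.4%, which measured 1017, 446 and 2980 CPM in the e2 birds, 1670, 2223 and 1264 CPM in the e1 birds of 2020 and 1176, 424 and 1013 CPM in the e1 birds of 2017. It stood at 1091, 573, 1443, 1952 and 2292 CPM in wild type of 2020 and at 347, 565, 617 and 690 CPM in wild type of 2017. Birds of 1 group thus differed up to several-fold in this transcript, and the same held for A306_00013013 at 38.3%, with 2224, 3528 and 741 CPM in the e2 birds alone. Over all 19 birds the highest value of a member was 1.29 to 8.58 times its lowest, with a median of 2.52, and 80 members varied at least 2-fold and 11 at least 4-fold.

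The question that the repeat collection raises for these transcripts is whether their level in the collar was the same in both batches. Most members differed between the batches in wild type. A306_00003471 measured 1213 to 1855 CPM, with a median of 1659 CPM, in the 5 wild-type birds of 2020, against 4738, 5868, 4636 and 5120 CPM in those of 2017. A306_00005132 measured 1445 to 2148 CPM, with a median of 1791 CPM, in 2020, against 4774, 5884, 4693 and 5019 CPM in 2017. In both genes every bird of 2020 was below every bird of 2017. The log2 fold change was -1.87 ± 0.30 for A306_00003471 (SE; adjusted p = 3.92e-04 by edgeR's quasi-likelihood test) and -1.66 ± 0.27 for A306_00005132 (adjusted p = 4.23e-04). They were the largest falls among the members called.

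A smaller number rose. A306_00012902 measured 1721 to 2709 CPM, with a median of 2238 CPM, in wild type of 2020, against 800, 826, 1171 and 1049 CPM in 2017, without overlap. Its log2 fold change was 1.01 ± 0.24 and that of A306_00012906 was 1.00 ± 0.26 (SE; edgeR, adjusted p = 0.00476 and 0.0101). Of the 10 most abundant members, 4 were lower, 1 was higher and 5 did not pass the test. A306_00002262, 1 of the 4, stood at -0.44 ± 0.15 on the log2 scale (SE; adjusted p = 0.0349 by edgeR), a call that was lost in 8 of 18 alternatives. These were plain library totals (-0.27) and leaving out wild-type bird 20, 21, 24 or 00 of 2020 or bird 1, 3 or 4 of 2017 (-0.45 to -0.32), and the adjusted p over all 18 was 0.0113 to 0.192. A306_00000962 fell by 1.02 ± 0.27 on the log2 scale (SE; adjusted p = 0.00997 by edgeR). A306_00012798 rose by 0.61 ± 0.21 on the log2 scale (SE; edgeR, adjusted p = 0.0406), a call that was lost in 7 of 18 alternatives. Those 7 left out wild-type bird 20, 23, 24 or 00 of 2020 or bird 1, 2 or 4 of 2017, with log2 fold changes of 0.50 to 0.63, and the adjusted p over all 18 was 0.0107 to 0.111. A306_00013073 had a log2 fold change of -1.01 ± 0.40 (SE) and did not pass (edgeR, adjusted p = 0.0737).

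Called at an adjusted p under 0.05 were 78 of the 113 members, 72 of them lower in wild type of 2020 and 6 higher, which is 63.7% lower and 5.31% higher. Over all genes tested 25.5% were called, 13.5% lower and 12% higher. This near-even split depends on the TMM scaling used: with plain library totals 2819 genes were called higher and 1084 lower. Among the members most calls were lower with either scaling, at 63 lower and 10 higher with plain library totals. The log2 fold change of 2020 over 2017 had a median of -0.67 over the members and 0.00 over all genes tested, and 90 members were negative and 23 positive. It reached a size of 1 or more, with an adjusted p under 0.05, in 42 members and in 525 of the 13420 genes tested. In 63 members every wild-type bird of 2020 was below every one of 2017, and in 12 members every one was above. These counts use CPM by plain library totals. The share of all genes that parted in this way is not given, so nothing is read from them. The rule averaged levels over both batches, so a member could reach its limit through 1 batch. A306_00013854 and A306_00013470, both called lower, averaged 968 and 969 CPM in wild type of 2020 and reached 1000 CPM through 2017. The batch difference of such members is partly set by the rule, and their number was not counted. They were not taken out of the 72 lower calls or of the median of -0.67, so both may owe a part to the rule. A single wild-type bird had 7 to 30 members under 1000 CPM in 2020 and 4 to 9 in 2017. The members' lower share is read against their level, because the group was chosen by level. Among the other genes with a mean of 500 to 1000 CPM 20.97% were called lower and 22.6% higher (124 genes). Among those of 100 to 500 CPM it was 17.8% and 23.2% (1984 genes). In bulk RNA, fewer cells of a type and less RNA per cell cannot be told apart, and a CPM value is a share, so a fall of these transcripts and a rise of others in the same library are not separate measurements.

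The median difference between members and all genes was -0.67 on the log2 scale with the TMM scaling used and -0.66 with plain library totals, which move the median of all genes to 0.17. A change of scaling moves the log2 fold changes of all genes in a contrast by nearly the same amount. This difference could therefore hardly change, and nothing is read from its steadiness. Plain totals also move the share of higher calls among all called genes to 72.2%, against 47.1% with TMM, and among the called members to 13.7%, against 7.69%.

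**Figure D2:**
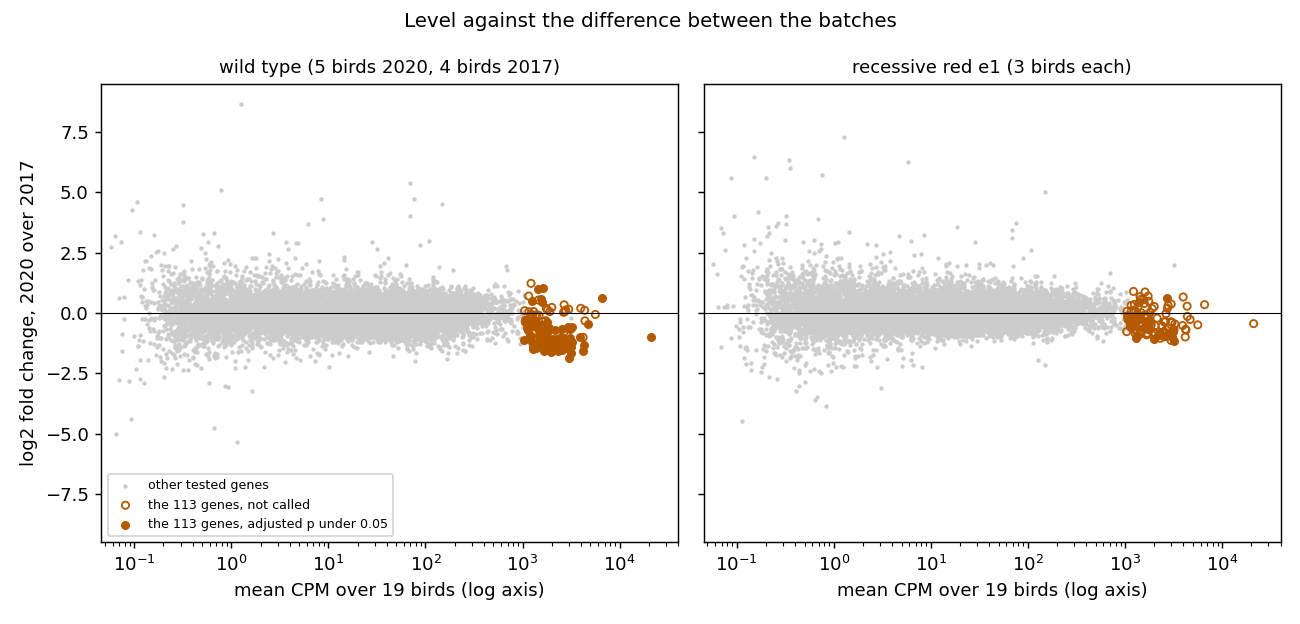
Log2 fold change of 2020 over 2017 (vertical axis) against mean CPM over 19 birds (log axis) for all 13420 genes tested, in wild type (left) and in e1 birds (right), with the 113 members coloured and those called filled. The members, at the right of each panel, lie mostly below 0, with a median of -0.67 in wild type and -0.44 in e1.

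The e1 birds, a separate set of animals in each batch, gave the same direction with fewer calls. A306_00005132 measured 1710, 1706 and 3369 CPM in the e1 birds 11, 12 and 6 of 2020, against 5289, 5249 and 4199 CPM in those of 2017. A306_00008872 measured 1032, 1567 and 1750 CPM in 2020, against 2956, 3050 and 2755 CPM in 2017. In both genes the batches did not overlap, and log2 fold changes of -1.18 ± 0.33 and -1.08 ± 0.25 (SE; adjusted p = 0.0371 and 0.0181 by edgeR) were the largest called. The 1 member that rose, A306_00001292, measured 3580, 3523 and 2934 CPM in 2020, against 2018, 2243 and 1900 CPM in 2017, which is 0.62 ± 0.17 higher on the log2 scale (SE; adjusted p = 0.0351 by edgeR). The 10 members called were 8.85% of the group, close to the 7.07% of all genes tested. The 9 lower calls were 7.96% of the members, against 3.43% of all genes called lower, and the 1 higher call stands against 3.64% called higher. Among the other genes with a mean of 500 to 1000 CPM 4.84% were called lower and 8.87% higher (124 genes). Among those of 100 to 500 CPM it was 4.79% and 7.21% (1984 genes). The median was -0.44 over the members and 0.01 over all genes, and 87 members were negative and 26 positive. As in wild type, the lower calls and this median may owe a part to the rule. In 46 members every e1 bird of 2020 was below every e1 bird of 2017, and in 11 members every bird was above. As in wild type, these counts use CPM by plain library totals. The share of all genes that parted in this way is not given for e1 either, so nothing is read from these counts. The calls of the 3 named members were lost in 5 or 6 of 15 alternatives each, with adjusted p-values over these of up to 0.149 for A306_00005132, 0.0704 for A306_00008872 and 0.139 for A306_00001292 (edgeR and DESeq2), and with no change of sign.

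The number of members called in e1 depended most on bird 6. Without it 45 members and 1092 of 13419 genes were called, and the members' median was -0.57. Without bird 11 or bird 12 of 2020 it was 4 members each, with 554 of 13430 and 347 of 13403 genes. Leaving out birds 1, 3 and 4 of 2017 gave 4, 6 and 4 members, with 414, 573 and 226 genes. The fit of all birds called 10 members and 949 of 13420 genes. DESeq2 called 26 members and 1529 of 12528 genes. A fit of the e1 birds alone called 0 members and 196 of 12621 genes by edgeR. It had 49 members and 2846 genes at an unadjusted p under 0.05, where the fit of all birds had 53 and 3217.

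Wild type and e1 share no bird, so their batch differences were set side by side. The sign was the same in 108 of the 113 members (95.6%), against 76.6% of all genes tested, and Pearson's r between the log2 fold changes was 0.94 over the members and 0.61 over all genes. This describes the genes and is not a test, since genes of 1 library vary together and the birds of a year share their batch. The rule averaged levels over both batches in both colour forms, so the members' sign share and r may owe a part to it. All genes tested include 2981 with a mean of 1 to 10 CPM, and no value at the members' level is given. All 78 members called in wild type had the same sign in e1. The 9 members called in both were 11.5% of the wild-type calls and 90% of the e1 calls, and 34 members were called in neither. The like shares over all genes are not given, so nothing is read from these counts or from the 78. The fold change was larger in size in wild type in 94 members. The difference between the 2 batch differences was tested in the same fit, and 0 members and 0 of 13420 genes passed (edgeR, 0% called), with 2 members and 478 genes at an unadjusted p under 0.05, while DESeq2 called 0 members and had 6 at an unadjusted p under 0.05. Its median over the members was 0.33 on the log2 scale and 0.10 without bird 6.

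**Figure D3:**
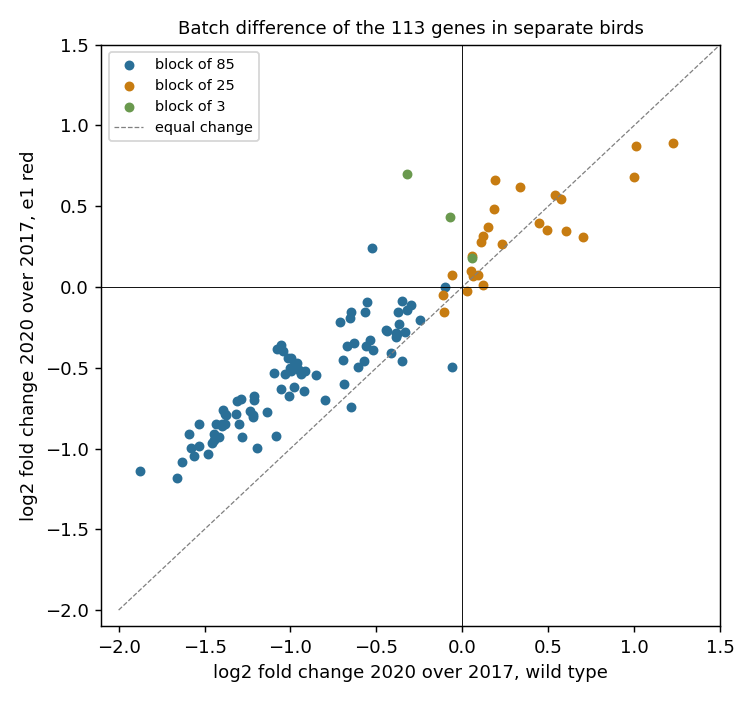
Log2 fold change of e1 2020 over 2017 (vertical axis) against that of wild type 2020 over 2017 (horizontal axis) for the 113 members, with 1 point per member coloured by its block and a dashed line of equal change. The points run along a line (r 0.94) that is flatter than the diagonal, with 94 members larger in size in wild type.

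The same shift showed in how much of a library the members filled. They took 24.2 ± 3.84% of all counts in the e2 birds and 23.5 ± 3.52% in the e1 birds of 2020 (SD, n = 3 each), 29.3 ± 0.669% in the e1 birds of 2017 (SD, n = 3), 21.6 ± 1.53% in wild type of 2020 (SD, n = 5) and 31.0 ± 1.59% in wild type of 2017 (SD, n = 4). The carrier stood at 21.7%. The wild-type birds held 19.5 to 23.1% in 2020 against 29.5 to 33.2% in 2017, a difference of -9.43 percentage points with no overlap. The e1 birds held 21.8, 21.1 and 27.5% in 2020 against 29.7, 29.6 and 28.5% in 2017, a difference of -5.78 points, again with no overlap. No p is given for these shares, since the members were chosen with these results known. Both differences may owe a part to the rule, which a gene could pass through 1 batch. Libraries of 2017 were filled by fewer genes: 25% of all counts lay in the 124 to 155 most abundant genes of each wild-type bird of 2020 and in 57 to 72 of each of 2017. For the e1 birds these numbers were 89 to 152 in 2020 and 75 to 84 in 2017.

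**Figure D4:**
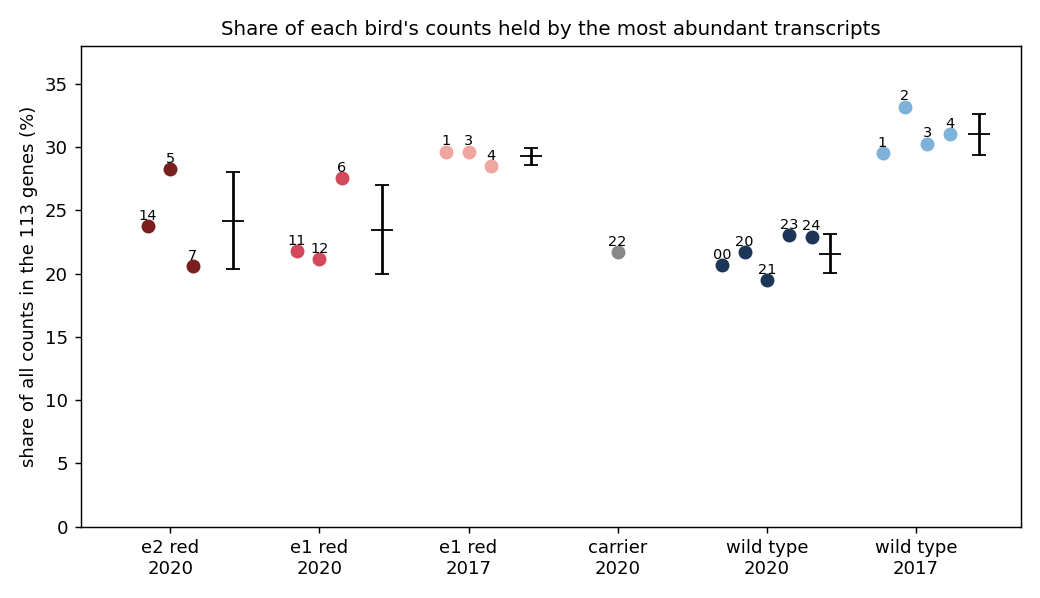
Percent of all gene counts held by the 113 members in each of the 19 birds (vertical axis), with 1 point per bird and the mean and SD of each group with replicates. Wild type of 2020 (19.5 to 23.1%) lies below wild type of 2017 (29.5 to 33.2%), and bird 5 (e2, 28.2%) and bird 6 (e1, 27.5%) lie above the other birds of 2020.

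Much of the members' variation was shared. The first principal component of their log2 CPM values held 78.2% of the variance over the 19 birds and the second 6.12%. With group means removed the first held 63.9% over the 18 birds of groups with replicates. That within-group component was largest in birds 5, 6 and 7 of 2020 (scores of 5.09, 4.32 and -5.45), with bird 12 next at -2.28. The median pairwise r over all members was 0.40, and 0.35 within groups. These values are not given for all genes. Members were sorted by average linkage of their correlations into 3 blocks, a number chosen after the values were seen. The blocks were made from the same values, so what follows describes them. The first block had 85 members, 7 of the leading 10 among them, with a median pairwise r of 0.80. It holds A306_00000962, A306_00003471, A306_00005132 and A306_00014008, and its median log2 fold change of 2020 over 2017 was -0.54 in e1 and -0.998 in wild type. All 72 members called lower in wild type and all 9 called lower in e1 belong to it.

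The second block had 25 members, A306_00012798, A306_00012799 and A306_00009109 of the leading 10 among them, with a median pairwise r of 0.59. Its median was 0.31 in e1 and 0.19 in wild type, and it holds the 6 members called higher in wild type and the 1 called higher in e1. The third block held A306_00007978, A306_00001361 and A306_00009634, with a median pairwise r of 0.34.

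The blocks also parted birds of 1 group. Relative to its mean over the birds, the first block stood on the log2 CPM scale at -0.08, 0.29 and -0.54 in the e2 birds 14, 5 and 7 and at -0.35, -0.38 and 0.17 in the e1 birds 11, 12 and 6 of 2020. It stood at 0.36, 0.38 and 0.32 in the e1 birds of 2017, at -0.52 to -0.18 in wild type of 2020 and at 0.38 to 0.58 in wild type of 2017. The second block ran the other way, at 0.11, -0.39 and 0.47 in the e2 birds and 0.30, 0.29 and -0.12 in the e1 birds of 2020. Birds 5 and 6 were thus the highest of the 2020 birds in the first block and the lowest in the second. Bird 7 differed from bird 5, of the same allele and batch, by more than the wild-type birds of 2020 differed among themselves. Detected genes numbered 14325 to 14385 in birds 5, 6 and 14 and 14157 to 14186 in birds 7, 11 and 12. Total counts were 17271989 to 19299570 in birds 5, 6 and 14 and 13559606 to 15170832 in birds 7, 11 and 12. Bird 14 had the highest total of these birds, with its first block at -0.08 and its second at 0.11. Wild-type bird 2 of 2017 had a total of 15090167 and the highest first block of all birds, at 0.58. The part of depth in the split of birds 5 and 6 from the others was not tested.

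**Figure D5:**
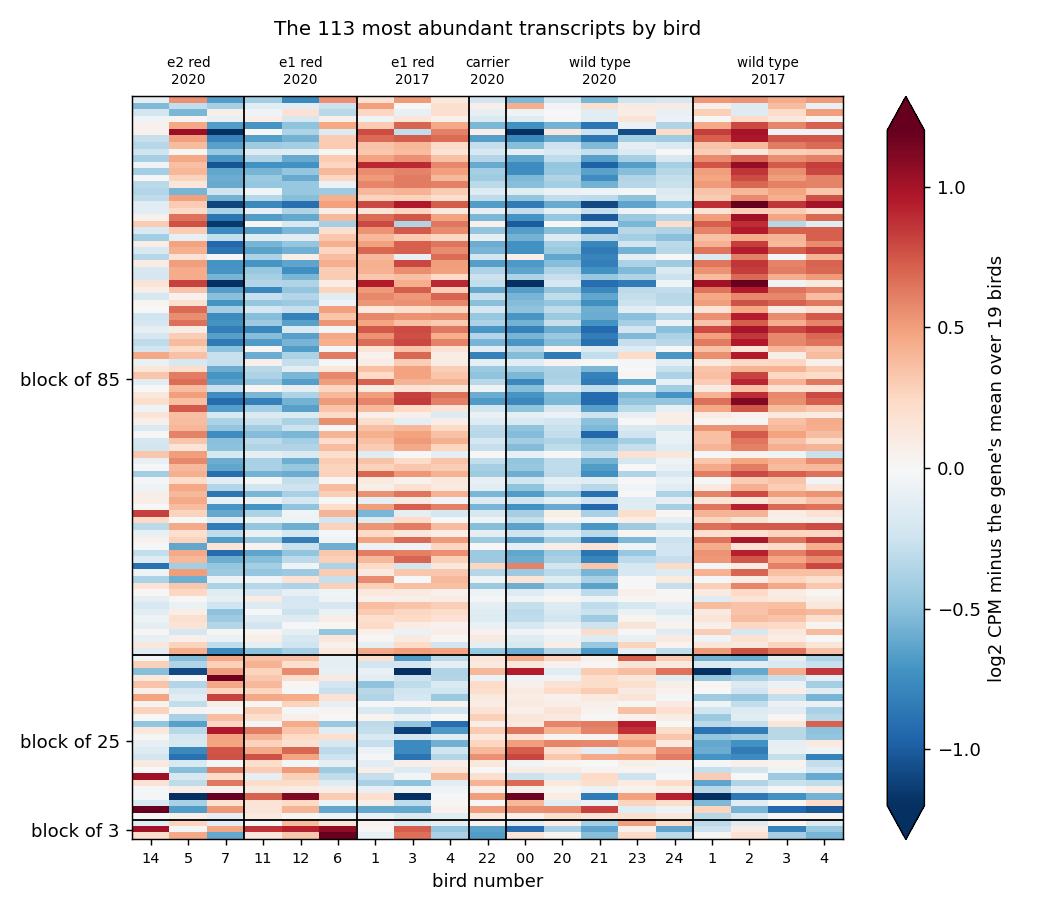
Log2 CPM of the 113 members, each relative to its own mean over the birds (colour, in log2 units), with members down the page grouped into 3 blocks and the 19 birds across in the order e2 2020, e1 2020, e1 2017, carrier, wild type 2020 and wild type 2017. Most of the 85 members of the first block are high in both groups of 2017 and in birds 5 and 6, and most of the 25 members of the second block are low there.

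The transcripts whose pattern was most like that of a named member were sought by Pearson r of log2 CPM over the 19 birds among the members. The blocks were made from the same correlations, so a shared block adds nothing to these values. A306_00000962 went with A306_00009729 (r 0.97), A306_00000740 (0.96) and A306_00004998 (0.96). A306_00012798 went with A306_00012906 (0.93), A306_00012902 (0.92) and A306_00002313 (0.89). These reference members were chosen after their values were seen.

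A306_00013073 was another case. It measured 3943, 7784 and 1603 CPM in the e2 birds 14, 5 and 7, 3822, 2956 and 3407 CPM in the e1 birds of 2020, 6540, 3106 and 5788 CPM in the e1 birds of 2017 and 4039 CPM in the carrier. It stood at 4156, 3191, 1812, 4504 and 1591 CPM in wild type of 2020 and at 6752, 7623, 3692 and 3702 CPM in wild type of 2017. Birds of a group differed by up to several-fold, most of all the e2 birds, and A306_00012945 (r 0.96) and A306_00013013 (r 0.91) varied with it, while the next transcript had an r of 0.75.

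The 2 alleles were compared within the 2020 batch, 3 e2 birds against 3 e1 birds. Of the members 0 of 113 were called by edgeR, against 0.0149% of all genes tested (2 of 13420, 0.00745% in each direction). At an unadjusted p under 0.05 were 0 members and 874 genes. DESeq2 called 0 members and 12 of 13998 genes. The log2 fold changes of e2 over e1 lay between -0.55 and 0.61 with a median of 0.06. Without e1 bird 6, e2 bird 7 or e2 bird 5 this median was 0.29, 0.25 and -0.14. The unadjusted p was then under 0.05 in 16, 9 and 4 members and in 1126, 1342 and 1293 of all genes. Without e2 bird 14, e1 bird 11 or e1 bird 12 it was so in 0 members. These values do not show that the alleles gave equal levels. A 95% interval stayed inside 1 log2 unit either side of 0 in 102 members and inside 0.5 in 29. Its median half-width was 0.54 and the widest 1.18. The intervals use 1 estimate of spread per gene over all 6 groups, so they are too narrow where the birds compared were more spread. For A306_00000962 the SD was 8481 CPM in e2 and 9325 CPM in e1 of 2020. It was 836 to 3641 CPM in the other groups with replicates. The counts of 102 and 29 may thus be too high. The share of counts in members differed by 0.702 percentage points, less than the SD of either group, and its sign turned without e2 bird 5 (-1.32), e1 bird 11 (-0.140) or e1 bird 12 (-0.476).

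The levels in recessive red and in wild type entered the rule, so they are given without a reading. The log2 ratio of group means, recessive red over wild type and without the carrier, ran from -0.67 to 0.65 in 2017 with a median of -0.07, and from -0.59 to 1.23 in 2020 with a median of 0.22. It lay within 0.25 of 0 in both batches in 53 members. The rule limits what a test of this contrast can give for the members: 1 was called by edgeR, against 3.06% of all genes (0.902% higher and 2.15% lower), and nothing is read from that. The member with the highest ratio in 2020, A306_00007978, measured 3147, 1544 and 2166 CPM in the e2 birds, 2855, 2958 and 3267 CPM in the e1 birds of 2020 and 1005 CPM in the carrier, against 828 to 1624 CPM in wild type of 2020. In 2017 it measured 1584, 2582 and 1125 CPM in the e1 birds, against 1318, 1661, 890 and 1140 CPM in wild type. The recessive red birds of 2017 overlapped wild type, and of those of 2020 the 3 e1 birds and 2 of the e2 birds lay above all wild-type birds, while e2 bird 5 did not.

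Genes near the limits of the rule show where it fell. Just inside were A306_00001048, at 1019 CPM in recessive red and 1077 CPM in wild type, and A306_00001377, at 1020 CPM in recessive red and 1465 CPM in wild type. Just outside were A306_00003974, at 991 CPM in recessive red and 1084 CPM in wild type, and A306_00003704, at 1018 CPM in recessive red and 978 CPM in wild type. By ratio the nearest members were A306_00002649, with log2 ratios of -0.67 in 2017 and -0.59 in 2020, and A306_00007978, at 0.49 in 2017 and 1.23 in 2020, the 1 member past 0.75 in 1 batch. A further 9 genes reached 1000 CPM in recessive red only and 6 in wild type only. The most abundant of these, A306_00007909, stood at 5.82 CPM in recessive red and 6021 CPM in wild type.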

How the data were processed

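The authors deposited raw counts per gene for 19 birds and beside them, per the file headers, a DESeq2 comparison with a mean signal, log2 fold changes with standard errors, test scores and p-values. The submitters' processing notes name DESeq2 with no version. The sources used here do not give the aligner, the counting program or the strand setting. The members and lists were chosen with earlier results of these data known. From the counts, CPM used all gene counts of a bird. Genes were filtered by filterByExpr (all 113 members passed), scaled by TMM and tested with edgeR's quasi-likelihood test (version 4.0.16, R 4.3.3) in 1 fit of 19 birds with a coefficient for each of 6 groups. The groups had 1 carrier as the smallest, so the filter asks for enough counts in 1 bird. P-values were adjusted by Benjamini and Hochberg over 13420 genes. The standard error is the log2 fold change divided by the square root of F. The p-values set a difference between groups against the spread between birds within groups. Nothing says that birds were unrelated, and each year is 1 batch. The p-values therefore speak for these birds and not for other birds or collections. The test was tried on simulated counts. Named were the 10 members of highest mean CPM, the 2 most and 2 least variable within groups, the 2 largest rises and falls called in each batch or allele comparison, and the 2 nearest each limit. The test of the difference between the batch differences, the blocks, the like patterns and their examples were added after the values were seen. A planned permutation test of the share of counts in members is not reported. Alternatives were DESeq2 (version 1.42.0), other scalings and filters, a minimum fold, other limits of the rule, a fit of only the groups compared, the carrier as wild type, a replicate block, and leaving out each bird.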

Additional observations from a re-analysis of the deposited data

Results flagged for a closer look

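In 48 checks of named members within a group of 4 or 5 wild-type birds, a single bird stood apart from the rest 2 times, where chance gives about 1 in 20. A306_00014008 measured 7372 CPM in wild-type bird 2 of 2017, against 6192 to 6320 CPM in the other 3 birds. A306_00012906 measured 1076 CPM in wild-type bird 3 of 2017, against 748 to 799 CPM in the others.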

How the results depend on the processing

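Of the 78 members called between the wild-type batches, 42 remained with a minimum fold of 2. When 1 bird was left out 64 to 75 were called, and 73 to 85 under the other alternatives. Over all genes these were 525, 2271 to 3130 and 3278 to 4086, against 3419 in the main fit. The 10 members called between the e1 batches became 26 with DESeq2, 0 with only the groups compared and 3 with a minimum fold of 2. They became 4 to 45 without 1 bird, and 57 without e1 bird 6 and e2 bird 5 together, which was added after the data were seen. Over all genes the 949 calls became 1529, 196, 176, 226 to 1092 and 1729, in that order. For e2 against e1 the count was 0 under every alternative run, and 0 to 0 without 1 bird. Over all genes it was 0 to 12 under the alternatives, and 0 to 6 without 1 bird. In recessive red against wild type 1 member was called, 3 with DESeq2 and 0 with a minimum fold of 2. Without 1 bird it was 0 to 3. Over all genes these were 410, 641, 219 and 284 to 546. The choice of members used this contrast, and nothing is read from it. The same-numbered birds 1, 3 and 4 of 2017 did not deviate together (r -0.11, -0.06 and -0.07). That cannot settle whether the numbers mark pairs, since paired birds need not deviate alike. With the replicate block 1 member and 406 of 13420 genes were called in recessive red against wild type. No paired analysis was possible for the other comparisons because their groups share no numbers. The share of counts in members differed between the wild-type batches by -9.93 to -8.70 percentage points without 1 bird, -6.66 with a limit of 2000 CPM and -8.56 with 500 CPM. For e1 it was -7.80 to -4.60, -4.31 and -5.25, and -7.80 without e1 bird 6 and e2 bird 5. For e2 minus e1 it was -1.32 to 2.72 without 1 bird, negative without e1 bird 11 (-0.140), e1 bird 12 (-0.476) or e2 bird 5 (-1.32), 0.465 and 0.585 with the other limits, and 0.697 without birds 5 and 6. The limit gave 42 members at 2000 CPM and 230 at 500 CPM. Of the named members' values under alternatives, 210 kept their side of the threshold, 33 passed no more and 0 turned. A306_00013013, with a log2 fold change of -1.56 between the wild-type batches (edgeR, adjusted p = 0.00837), was not called without wild-type bird 2 of 2017 (-1.18, adjusted p = 0.0506). The cause of these differences was not tested. Counting error was at most 1.22% for a member in a bird, which says nothing of other differences that go with depth.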
